A study of Homo sapiens with 6 samples.

Results

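The genes described here are those of the HIF pathway and a set of hypoxia-induced transcripts, 38 genes listed by name, in SW-1990 cells with and without knockdown of the prolactin receptor. A member was represented by the probe set annotated with its symbol alone that had the highest mean over all arrays. This gave 37 members of 19775 genes, and CA9 was not analysed here. SW-1990 is an established human cell line from a splenic metastasis of a pancreatic adenocarcinoma. In sh-PRLR cells a lentivirus delivered a short hairpin RNA that targets PRLR, and in sh-Ctrl cells a scrambled one. Both had been kept in puromycin at 1 μg/ml for more than 7 days, so both groups are virus-infected, drug-selected cells. Each group had 3 Affymetrix U133 Plus 2.0 arrays, given in the labels as biological replicates. Whether these came from separate infections is not stated, so p-values measure the spread between these arrays alone. The number of different hairpins and their sequences are not given in the sources used here, and the labels name no low-oxygen treatment.

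Hypoxia-inducible factors are pairs of an oxygen-regulated alpha subunit (HIF1A or EPAS1, the gene of HIF-2 alpha) and the constant beta subunit ARNT. With oxygen present, the EGLN prolyl hydroxylases mark the alpha subunit, VHL recruits a ubiquitin ligase to it, and HIF1AN blocks its activation domain by a further hydroxylation. When oxygen falls the alpha subunit is no longer degraded, enters the nucleus with ARNT and binds short response elements near genes for glucose uptake, blood vessel growth, mitophagy and collagen modification. Much of this control acts on the HIF protein, which arrays do not measure. In pancreatic cancer the pathway is known from the poorly perfused tumour tissue.

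The binding core of HIF is ACGTG or GCGTG. Promoters that carry it are shown for 6 members that passed the test described below. They were taken in order of adjusted p among members whose available promoter holds a match, so they were chosen for carrying the core. NDRG1, SLC2A3, VEGFA and BNIP3L also passed but had no promoter sequence here. Capitals mark each match on either strand, so that a match on the opposite strand reads CACGT or CACGC. The sequences are from RefSeq (GRCh38.p14), written 5′ to 3′ on the gene's strand, from 250 bases before to 50 bases after the annotated start. Of the 37 members 29 had such a window, 35 windows in all, since several genes have more than 1 start. DDIT4, BHLHE40, KDM3A, WSB1 and ADM rose in sh-PRLR cells and EPAS1 fell. PLOD2, which fell with a larger adjusted p, also carries the core, at positions -213, -200 and -146 from its start, and TMEM45A, which fell too, had 0 matches.
DDIT4 promoter, chr10:72273674-72273973, plus strand: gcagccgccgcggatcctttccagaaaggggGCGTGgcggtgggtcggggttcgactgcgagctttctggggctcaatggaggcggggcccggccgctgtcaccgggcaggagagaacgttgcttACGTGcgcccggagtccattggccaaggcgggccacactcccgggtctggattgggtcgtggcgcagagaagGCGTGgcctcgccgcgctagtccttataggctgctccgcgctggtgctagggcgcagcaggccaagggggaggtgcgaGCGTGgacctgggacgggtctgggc
BHLHE40 promoter, chr3:4979187-4979486, plus strand: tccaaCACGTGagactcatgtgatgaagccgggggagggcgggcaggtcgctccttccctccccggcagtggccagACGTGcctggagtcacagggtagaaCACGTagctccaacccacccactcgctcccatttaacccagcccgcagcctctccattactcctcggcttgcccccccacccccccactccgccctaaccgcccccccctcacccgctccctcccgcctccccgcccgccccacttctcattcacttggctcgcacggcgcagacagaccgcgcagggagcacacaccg
KDM3A promoter, chr2:86441121-86441420, plus strand: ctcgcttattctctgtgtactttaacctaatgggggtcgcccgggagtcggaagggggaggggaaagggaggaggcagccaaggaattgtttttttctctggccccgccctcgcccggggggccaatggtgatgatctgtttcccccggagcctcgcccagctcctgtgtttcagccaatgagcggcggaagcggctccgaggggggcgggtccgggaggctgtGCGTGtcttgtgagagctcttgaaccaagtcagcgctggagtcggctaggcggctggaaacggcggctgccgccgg
WSB1 promoter, chr17:27293864-27294163, plus strand: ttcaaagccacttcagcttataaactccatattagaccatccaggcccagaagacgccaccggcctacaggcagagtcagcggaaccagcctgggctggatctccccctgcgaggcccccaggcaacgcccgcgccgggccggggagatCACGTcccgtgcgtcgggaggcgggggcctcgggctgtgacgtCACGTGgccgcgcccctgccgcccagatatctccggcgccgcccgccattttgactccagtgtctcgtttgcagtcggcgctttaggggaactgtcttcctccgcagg
ADM promoter, chr11:10304823-10305122, plus strand: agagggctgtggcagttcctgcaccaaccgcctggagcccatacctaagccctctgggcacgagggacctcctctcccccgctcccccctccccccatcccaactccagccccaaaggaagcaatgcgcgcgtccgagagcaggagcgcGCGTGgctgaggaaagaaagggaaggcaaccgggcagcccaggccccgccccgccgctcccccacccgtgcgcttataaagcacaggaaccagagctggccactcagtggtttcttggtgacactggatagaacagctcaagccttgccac
EPAS1 promoter, chr2:46297157-46297456, plus strand: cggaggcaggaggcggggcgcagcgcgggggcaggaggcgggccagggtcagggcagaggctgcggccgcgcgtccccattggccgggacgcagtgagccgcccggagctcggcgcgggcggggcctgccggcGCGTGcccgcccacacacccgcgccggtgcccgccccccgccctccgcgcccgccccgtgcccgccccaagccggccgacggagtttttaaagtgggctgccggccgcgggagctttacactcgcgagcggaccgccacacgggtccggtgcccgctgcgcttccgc

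The DDIT4 window held 4 matches, of which the ACGTG match began at position -125 from the start and the last at position 25. The BHLHE40 window also held 4 matches, and the WSB1 window 3. In both of these a pair of matches on opposite strands formed the palindrome CACGTG, the E-box, which is read by MYC, USF and the BHLHE40 protein itself as well as by HIF-like factors. KDM3A, ADM and EPAS1 had 1 match each in the windows shown, in ADM at position -101 and in EPAS1 at position -117. Among the members 27 of 35 windows held the core (77.1%), against 48.4% of all 35116 promoter windows. The core is rich in C and G, and so were the members' windows. Among windows with at least 60% G and C, 86.7% of 30 member windows and 64.9% of 16447 windows held it. The match was found in 6 of 6 windows of 5 members that rose, the others that rose (VEGFA, SLC2A3, NDRG1 and BNIP3L) not being among these windows, in 2 of 3 of members that fell, and in 19 of 26 of members that did not pass (73.1%). Overlapping windows of a gene can hold the same match, as for LOX and for KDM3A (-26 and -116 from its 2 starts). Counted by gene, the core was in 5 of 5 members that rose, 2 of 3 that fell and 17 of 21 that did not pass. The ACGTG form alone had the opposite order, in 3 of 6 windows of members that rose and 16 of 26 of those that did not pass. Differences between these shares were not tested. A match is a run of letters and not a measured binding site.

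**Figure D1:**
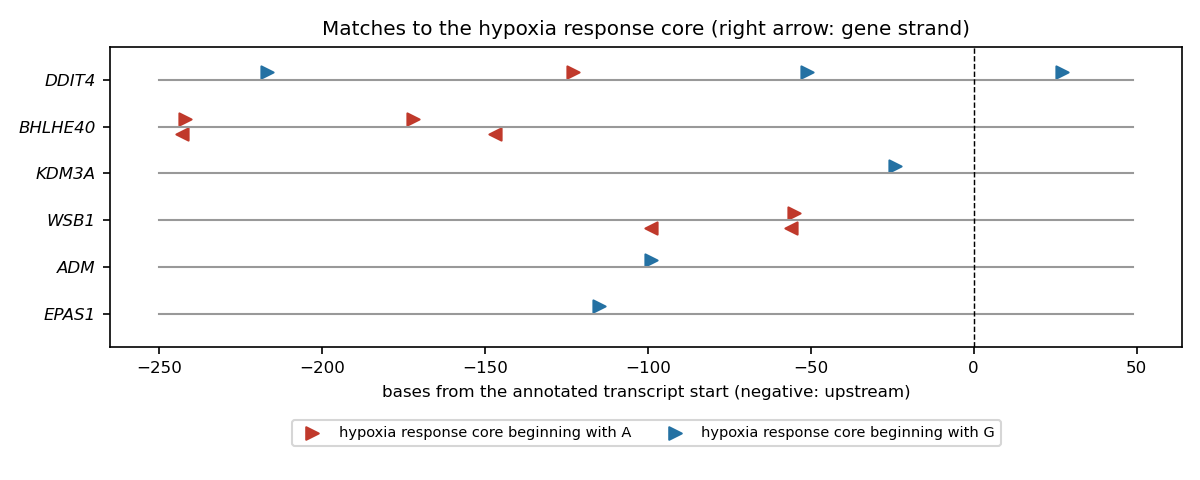
Position of each match to the hypoxia response core in the promoter windows of DDIT4, BHLHE40, KDM3A, WSB1, ADM and EPAS1, in bases from the annotated start (dashed line), with right arrows for the gene's strand and left arrows for the opposite strand. DDIT4 and BHLHE40 show 4 matches each, WSB1 shows 3, and the others show 1.

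All values are log2 expression per probe set, differences are sh-PRLR minus sh-Ctrl, errors are SD over 3 arrays unless named as SE, and "rose" or "fell" means an adjusted p under 0.05 by limma with intensity-dependent variance over all 19775 genes. By the rule used for the members PRLR read 5.63, 5.71 and 5.05 in sh-PRLR, against 5.75, 5.36 and 5.97 in sh-Ctrl, with overlapping groups (-0.23, limma adjusted p = 0.811). All 7 PRLR probe sets had a mean level below 5.93, the limit of the dimmest 40% of genes, and all 7 were lower in sh-PRLR. Of them 0 passed over all probe sets (smallest limma adjusted p = 0.0948), while 2 had an unadjusted p under 0.05. Their average was 3.94, 4.38 and 4.19 in sh-PRLR, against 5.23, 5.03 and 4.79 in sh-Ctrl, without overlap (exact two-sided permutation p = 0.1, the smallest possible with 3 arrays against 3). The epithelial markers EPCAM, KRT8, KRT18 and KRT19 had means between 12.60 and 15.30 in both groups and did not pass, while CDH1 was lower by 0.17 and passed. Of 14 measured markers of fibroblasts, leukocytes, endothelium and erythroid cells 0 passed, and 12 lay below the median gene level of 7.23. The fibroblast markers as a list averaged 4.85 to 5.16 on sh-PRLR arrays and 5.47 to 5.77 on sh-Ctrl arrays, and their part in the results was not tested. The log2 difference between 3′ and 5′ control probe sets, a sign of RNA integrity, was 0.13 ± 0.06 in sh-PRLR and 0.22 ± 0.05 in sh-Ctrl for GAPDH, and 3.04 ± 0.06 in sh-PRLR and 3.22 ± 0.16 in sh-Ctrl for ACTB (exact two-sided permutation p = 0.2 for each, n = 3 per group).

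The members split into a group of 9 that rose, 3 that fell and 25 that did not pass. NDRG1, SLC2A3, ADM, BHLHE40, KDM3A, VEGFA, DDIT4, WSB1 and BNIP3L rose, by 1.21-fold to 1.86-fold. EPAS1, TMEM45A and PLOD2 fell. Thus 32.4% of the members passed, against 7.66% of all genes tested, and 24.3% rose against 3.34% of all genes, while 8.11% fell against 4.32%. The members are measured at higher levels than most genes, where arrays scatter less and calls are more frequent. In the highest 25% of genes by level 10 of 19 members passed (52.6%), against 19% of all genes there, and 8 of these rose, against 9.83%, and 2 fell, against 9.16%. In the next 25% of genes 2 of 10 members passed, against 10.2%. Of the 8 members below the median level 0 passed, but few genes did there. The share of all genes was 0.506% in the lowest 25% and 0.91% in the 25% above it. The median log2 difference of the 37 members was -0.0047, beside -0.0013 over all genes, with 18 differences above 0 and 19 below. A larger share of the members than of all genes passed, while the middle of the list lay near 0. The members were chosen with earlier results of these data known, so this share is a description and not a test. With limma's default variance 0 of the 37 members passed and 4 of 19775 genes did (0.0202%). With intensity-dependent variance 18 of the 37 members had an unadjusted limma p under 0.05, beside 4010 of all 19775 genes.

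**Figure D2:**
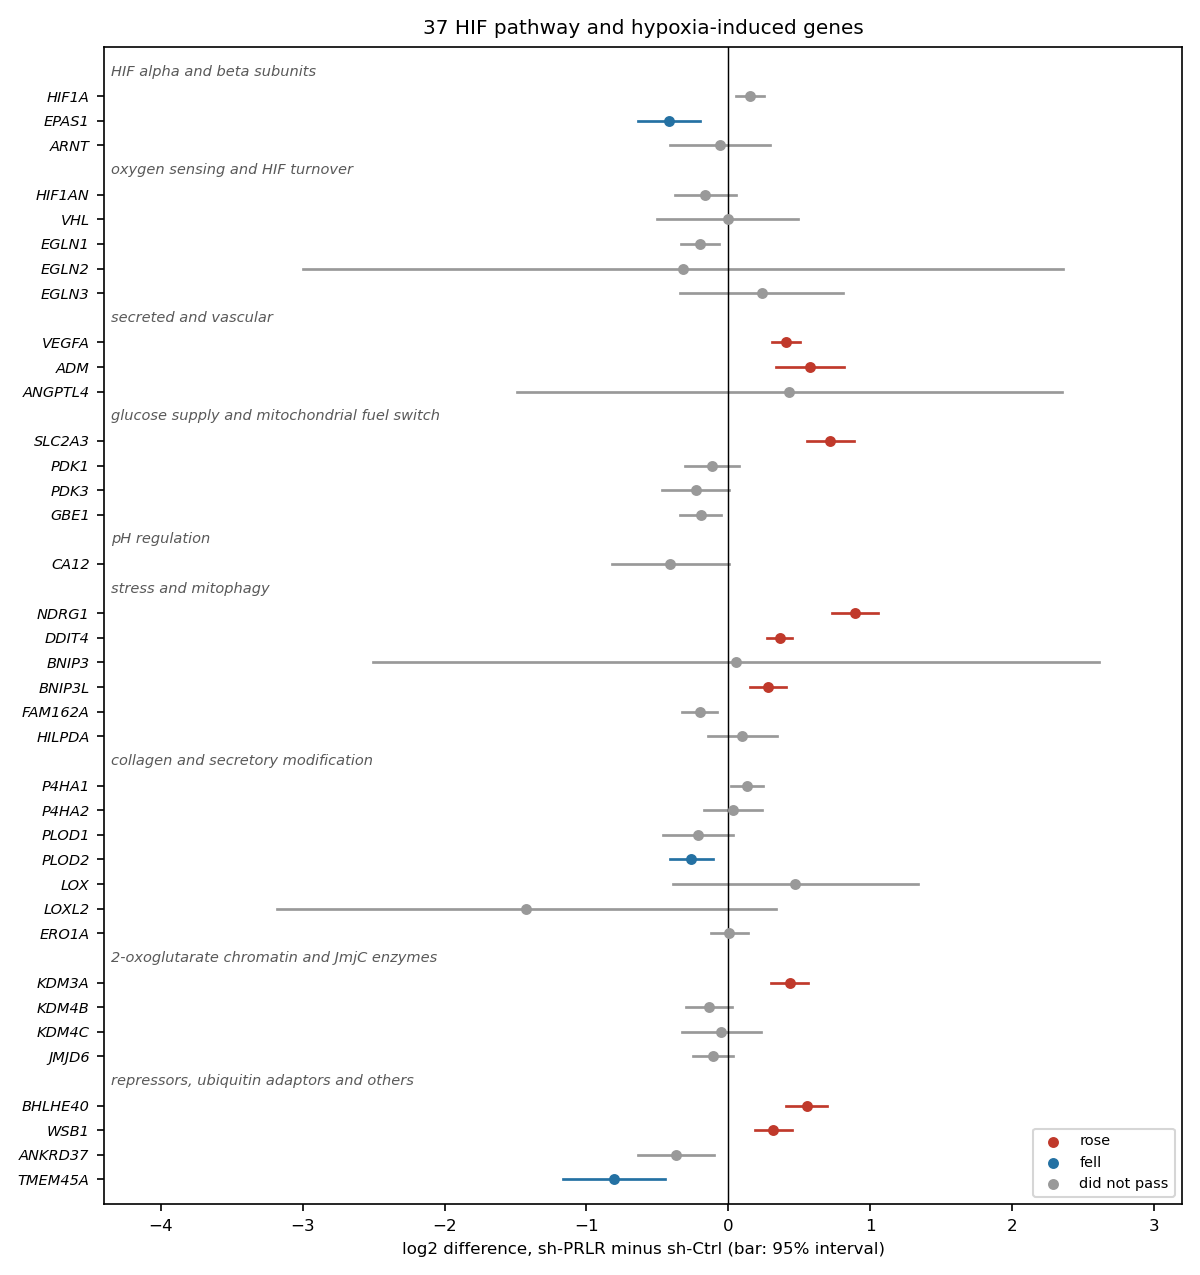
Log2 difference, sh-PRLR minus sh-Ctrl, for each of the 37 measured members grouped by role, with its 95% interval from limma. The 9 members that rose lie between 0.28 and 0.89, the 3 that fell between -0.81 and -0.26, and the widest intervals belong to the dim members EGLN2, BNIP3 and ANGPTL4.

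Of the 3 subunit genes EPAS1 passed, with a call that depended on single arrays, and HIF1A and ARNT did not. HIF1A read 13.76, 13.79 and 13.68 in sh-PRLR, against 13.55, 13.58 and 13.64 in sh-Ctrl. Each sh-PRLR array was above each sh-Ctrl array, by a small margin, and the difference of 0.15 (95% interval 0.05 to 0.25) did not pass (limma adjusted p = 0.0725). EPAS1 read 10.37, 10.42 and 10.14 in sh-PRLR, against 10.62, 10.64 and 10.91 in sh-Ctrl. The groups did not overlap, and EPAS1 fell by 0.42 (SE 0.10, limma adjusted p = 0.0291). This call was lost without sh-PRLR replicate 3 (adjusted p = 0.0931 by limma) or without sh-Ctrl replicate 1, 2 or 3 (0.0533, 0.0665 and 0.104), and the difference was 0.03 when the 3 EPAS1 probe sets were averaged. The other 2 EPAS1 probe sets lie far lower, at means of 3.40 to 5.30 in sh-PRLR and 3.47 to 4.72 in sh-Ctrl, and their groups overlapped. ARNT read 9.03, 9.17 and 9.04 in sh-PRLR, against 9.09, 8.80 and 9.52 in sh-Ctrl, with overlapping groups (limma adjusted p = 0.892). Of its 7 probe sets 6 had the opposite sign to this one, and 1 of these showed the clearest separation, 7.58, 8.16 and 8.39 in sh-PRLR against 7.50, 7.21 and 7.23 in sh-Ctrl, without passing (limma adjusted p = 0.0857 over all probe sets). The direction of ARNT thus depends on the probe set.

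None of the 5 genes of oxygen sensing and HIF turnover passed. EGLN1, the main HIF prolyl hydroxylase in most cells, read 11.51, 11.65 and 11.62 in sh-PRLR, against 11.76, 11.88 and 11.74 in sh-Ctrl. Every sh-PRLR array was lower, and the difference was -0.20 (95% interval -0.33 to -0.06, limma adjusted p = 0.0843). A second probe set gave -0.21, also without overlap and without passing. EGLN3, a prolyl hydroxylase that is itself a HIF target, read 6.50, 7.07 and 7.45 in sh-PRLR, against 6.85, 6.65 and 6.81 in sh-Ctrl. The sh-PRLR arrays lay on both sides of the sh-Ctrl arrays (difference 0.24, limma adjusted p = 0.689). EGLN2, the third of the family, was read by 1 dim probe set with 0.36, 1.61 and 4.83 in sh-PRLR, against 1.45, 2.42 and 3.90 in sh-Ctrl. The 95% interval of the difference ran from -3.00 to 2.36, so these arrays do not show a direction of change for EGLN2. VHL read 6.98, 6.62 and 6.72 in sh-PRLR, against 6.69, 7.00 and 6.65 in sh-Ctrl (95% interval of the difference -0.50 to 0.49). HIF1AN, the asparagine hydroxylase, read 9.33, 9.52 and 9.28 in sh-PRLR, against 9.46, 9.50 and 9.65 in sh-Ctrl. Both sets of values overlapped (difference for HIF1AN -0.16, limma adjusted p = 0.406).

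Among the secreted members, the vascular factors VEGFA and ADM rose. VEGFA, the main growth factor for blood vessels, read 13.49, 13.40 and 13.42 in sh-PRLR, against 13.03, 13.05 and 13.00 in sh-Ctrl. The arrays of each group lay within 0.1 of each other and the groups stood apart by 0.41 (SE 0.04, 1.33-fold, limma adjusted p = 0.000544). The 4 VEGFA probe sets all passed, with differences of 0.41, 0.51, 0.59 and 0.63. ADM, which encodes the vasodilator peptide adrenomedullin, read 10.28, 10.20 and 10.06 in sh-PRLR, against 9.70, 9.37 and 9.74 in sh-Ctrl. It was higher on all sh-PRLR arrays by 1.49-fold on average (log2 0.57, SE 0.11, limma adjusted p = 0.0103). ANGPTL4, a secreted inhibitor of lipoprotein lipase, was dim at 4.63 ± 1.09 in sh-PRLR and 4.20 ± 1.42 in sh-Ctrl, and its 95% interval ran from -1.49 to 2.35.

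Of the genes of fuel supply SLC2A3, the glucose transporter GLUT3, rose and the others did not pass. SLC2A3 read 10.80, 10.81 and 10.90 in sh-PRLR, against 9.99, 10.18 and 10.18 in sh-Ctrl. The gap between the groups was wider than the range of either group, with a difference of 0.72 (SE 0.07, 1.65-fold, limma adjusted p = 0.00041). All 3 of its probe sets passed, with 0.72, 0.87 and 1.00, but they are of the _x_at and _s_at kinds that can also bind related transcripts, and SLC2A14 is a close paralog, so the share of each is uncertain. PDK1 and PDK3, kinases that keep pyruvate out of mitochondria, were at 10.33 ± 0.15 and 9.21 ± 0.19 in sh-PRLR, against 10.44 ± 0.08 and 9.44 ± 0.03 in sh-Ctrl. For PDK3 another probe set read 8.17, 8.18 and 8.25 in sh-PRLR, against 8.90, 8.60 and 8.69 in sh-Ctrl. That probe set was lower by 0.53 and passed over all probe sets (limma adjusted p = 0.0316), whereas the one standing for the gene was lower by 0.23 and did not (limma adjusted p = 0.258 over all genes). GBE1, the glycogen branching enzyme, was 10.97 ± 0.09 in sh-PRLR and 11.17 ± 0.05 in sh-Ctrl, without overlap, and did not pass (limma adjusted p = 0.104).

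CA12, a carbonic anhydrase of the cell surface that helps control pH, was represented by a probe set at 7.02 ± 0.09 in sh-PRLR and 7.43 ± 0.20 in sh-Ctrl and did not pass (limma adjusted p = 0.251). Of its 7 probe sets 4 were lower and 3 higher. The largest difference was in a probe set that read 2.57, 2.30 and 2.84 in sh-PRLR, against 5.14, 4.44 and 5.48 in sh-Ctrl. All of these values lie below the limit of 5.93 that marks the dimmest 40% of genes, and the probe set did not pass (limma adjusted p = 0.0934 over all probe sets).

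Stress and mitophagy genes held the largest rise. NDRG1, a growth-suppressing gene strongly induced by low oxygen, read 10.92, 11.01 and 11.05 in sh-PRLR, against 10.18, 9.99 and 10.13 in sh-Ctrl. Every sh-PRLR array was above every sh-Ctrl array by more than 0.7, and the mean difference of 0.89 (SE 0.07) is 1.86-fold (limma adjusted p = 0.000106). DDIT4, or REDD1, which restrains mTORC1, read 14.20, 14.16 and 14.12 in sh-PRLR, against 13.79, 13.79 and 13.81 in sh-Ctrl. The replicates were close together and DDIT4 rose by 0.36 (SE 0.04, 1.29-fold, limma adjusted p = 0.000561). BNIP3L, a receptor that sends mitochondria to autophagy, read 12.07, 11.93 and 11.97 in sh-PRLR, against 11.73, 11.65 and 11.74 in sh-Ctrl. It rose by 0.28 (SE 0.06, limma adjusted p = 0.0147), and its second probe set gave the same difference of 0.28 and passed. Without sh-Ctrl replicate 2 the BNIP3L call was lost (limma adjusted p = 0.0795). BNIP3, its close relative, was dim and scattered, with 4.83, 2.09 and 2.92 in sh-PRLR and 4.01, 4.82 and 0.85 in sh-Ctrl, so the pair cannot be set side by side here. FAM162A, a HIF-responsive mitochondrial gene, was lower on all sh-PRLR arrays, at 12.04 ± 0.08 in sh-PRLR and 12.24 ± 0.04 in sh-Ctrl, and just missed the threshold (limma adjusted p = 0.0523). Of its 5 probe sets all were lower and 2 passed over all probe sets (-0.22 and -0.27). HILPDA, a lipid droplet protein, was 9.27 ± 0.16 in sh-PRLR and 9.18 ± 0.12 in sh-Ctrl, with overlap.

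**Figure D3:**
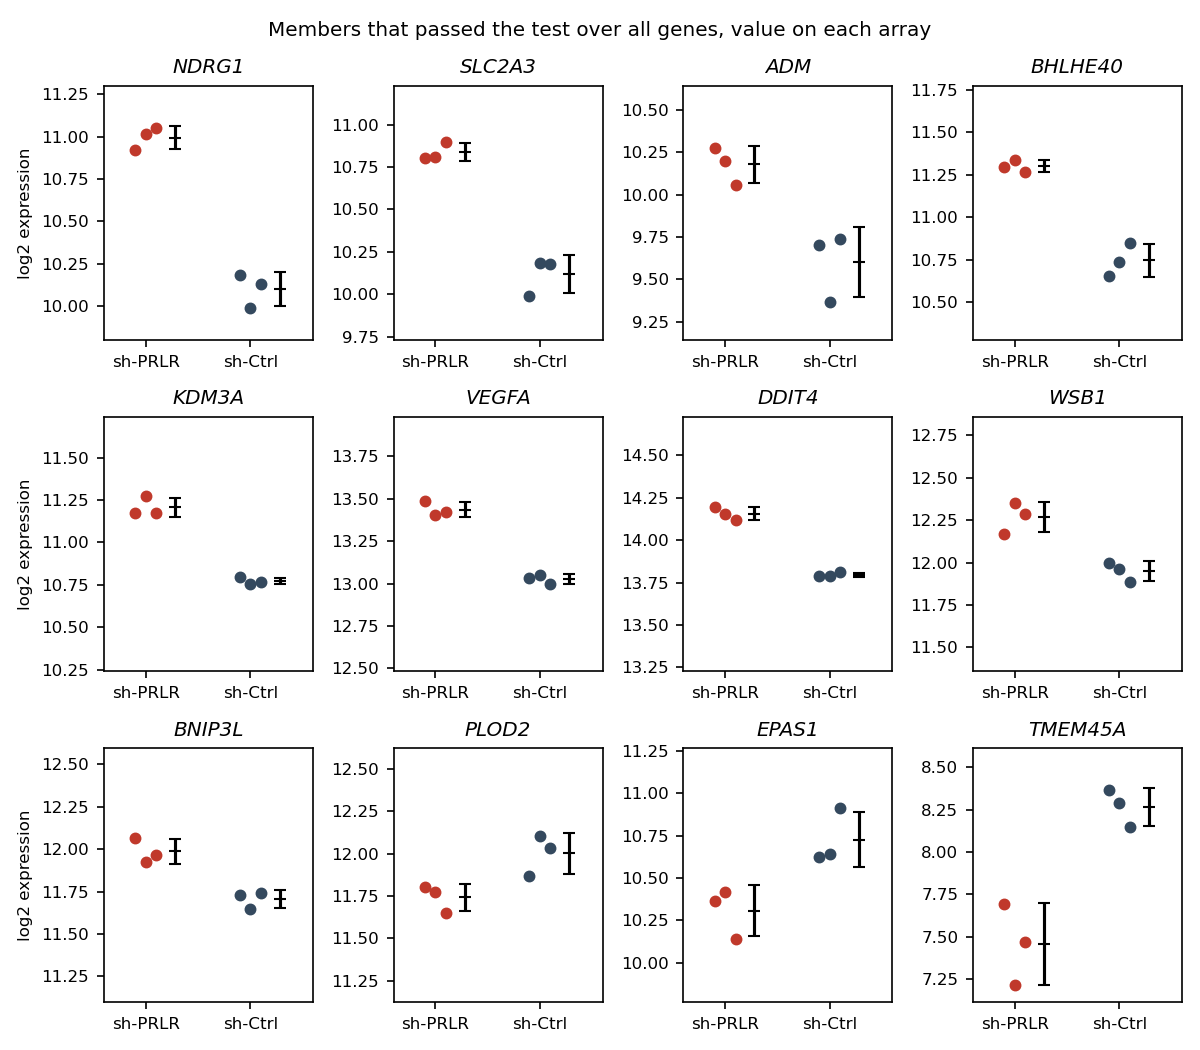
Log2 expression of the 12 members that passed on each of the 3 sh-PRLR arrays (red) and 3 sh-Ctrl arrays (dark), with mean ± SD as the bar beside the points. Each panel spans the same log2 range around its own centre, and in all 12 panels the groups do not overlap.

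The collagen-modifying and secretory members gave 1 fall among 7. PLOD2, a lysyl hydroxylase that shapes collagen cross-links, read 11.80, 11.78 and 11.65 in sh-PRLR, against 11.87, 12.10 and 12.03 in sh-Ctrl. The groups were close but did not overlap, and PLOD2 fell by 0.26 (SE 0.07, limma adjusted p = 0.0486), close to the threshold. Its second probe set was lower by 0.51 and passed over all probe sets (limma adjusted p = 0.0198), whereas the first did not pass there (limma adjusted p = 0.0669). The PLOD2 call was lost without any 1 of the arrays except sh-Ctrl replicate 1, with limma adjusted p between 0.0552 and 0.192. P4HA1, a subunit of collagen prolyl 4-hydroxylase, was 11.95 ± 0.01 in sh-PRLR and 11.82 ± 0.05 in sh-Ctrl, and its paralog P4HA2 was 10.93 ± 0.19 in sh-PRLR and 10.90 ± 0.06 in sh-Ctrl. Neither passed, and P4HA1 alone of the pair was without overlap (95% interval of the difference 0.02 to 0.24). PLOD1 (-0.21) and ERO1A, the oxidase that drives disulphide formation in the endoplasmic reticulum (0.0067), did not pass either. The lysyl oxidases LOX and LOXL2 were dim, and LOXL2 read 2.59, 6.17 and 5.85 in sh-PRLR, against 6.48, 6.26 and 6.16 in sh-Ctrl. The low mean of LOXL2 in sh-PRLR rests on replicate 1.

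KDM3A, a demethylase of histone H3 lysine 9 that HIF induces, was the 1 member of the JmjC enzyme group that rose. It read 11.17, 11.27 and 11.17 in sh-PRLR, against 10.80, 10.76 and 10.77 in sh-Ctrl. The separation of 0.43 (SE 0.06, 1.35-fold, limma adjusted p = 0.00174) was several times the range of either group. The second KDM3A probe set lay near 5.3 in both groups with a difference of 0.03, and the call was lost when the 2 were averaged (limma adjusted p = 0.506). KDM4B was 9.90 ± 0.03 in sh-PRLR and 10.04 ± 0.07 in sh-Ctrl, KDM4C 9.77 ± 0.27 in sh-PRLR and 9.82 ± 0.10 in sh-Ctrl, and JMJD6 10.67 ± 0.06 in sh-PRLR and 10.77 ± 0.04 in sh-Ctrl. These 3 had differences below 0 and did not pass.

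BHLHE40 and WSB1 rose, while TMEM45A fell. BHLHE40, a transcriptional repressor linking hypoxia to the circadian clock, read 11.30, 11.34 and 11.27 in sh-PRLR, against 10.65, 10.73 and 10.85 in sh-Ctrl. It rose by 0.55 (SE 0.07, 1.47-fold, limma adjusted p = 0.000928), and a second, dimmer probe set gave 0.24 with overlapping groups. When both were averaged the BHLHE40 call was lost (limma adjusted p = 0.0631). WSB1, a substrate adaptor of a ubiquitin ligase, read 12.17, 12.35 and 12.28 in sh-PRLR, against 12.00, 11.96 and 11.88 in sh-Ctrl. All sh-PRLR arrays were higher, and WSB1 rose by 0.32 (SE 0.06, limma adjusted p = 0.00982). Of its 5 probe sets 4 passed, with differences of 0.32, 0.32, 0.93 and 0.77, while the fifth gave -0.34 without passing, so the size of the rise differed between probe sets. TMEM45A, a transmembrane protein gene, read 7.70, 7.21 and 7.47 in sh-PRLR, against 8.37, 8.29 and 8.14 in sh-Ctrl. It had the largest fall of the members that passed, -0.81 (SE 0.16, 0.571-fold, limma adjusted p = 0.0137), and lost the call without sh-Ctrl replicate 1 (limma adjusted p = 0.0669) or replicate 2 (limma adjusted p = 0.0634). ANKRD37, an ankyrin-repeat gene and HIF target, was 8.41 ± 0.16 in sh-PRLR and 8.78 ± 0.10 in sh-Ctrl, without overlap, and did not pass (limma adjusted p = 0.104).

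**Figure D4:**
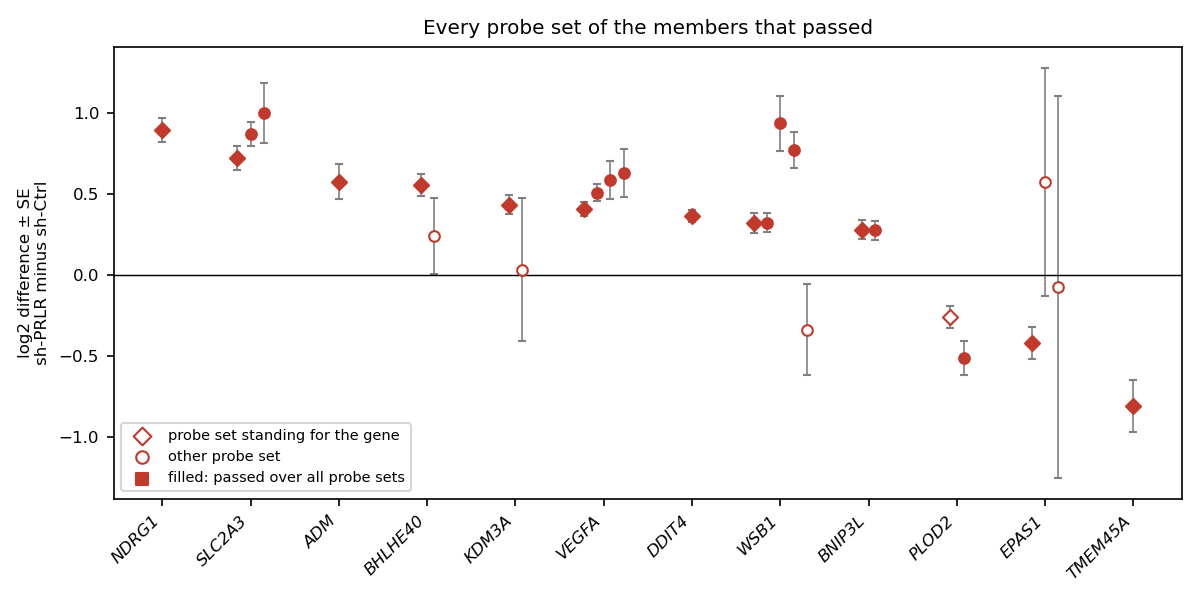
Log2 difference ± SE, sh-PRLR minus sh-Ctrl, of every probe set of the 12 members that passed, with a diamond for the probe set standing for the gene and filled symbols for an adjusted p under 0.05 over all probe sets. All probe sets of VEGFA, SLC2A3 and BNIP3L are filled and above 0, whereas WSB1 has 1 open symbol below 0 and EPAS1 1 open symbol above 0.

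In all, the 37 members were read by 108 probe sets. Of these 83 had the sign of the probe set standing for their gene, counting that one, and 25 the opposite sign. Of the 108 probe sets 24 passed when adjusted over the 41091 tested on the arrays, of which 4.67% passed. Of the 24, 0 had the opposite sign, but they include probe sets standing for their gene, whose sign agrees by definition. The arrays of the groups did not overlap for 23 of 37 members (62.2%), 12 higher and 11 lower in sh-PRLR, against 25.8% of all genes. In the highest 25% of genes by level 16 of 19 members did not overlap, against 44.2% of the genes there.

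Genes around the pathway, from 5 lists, were read from the same fit. Among 12 other HIF regulators 1 fell and 0 rose, a share of 8.33% near the 7.66% of all genes. The gene that fell was CITED2, a HIF target that competes with HIF for the coactivators CREBBP and EP300, at 10.70, 10.79 and 10.71 in sh-PRLR, against 11.24, 11.30 and 11.26 in sh-Ctrl. The groups stood far apart (-0.53, SE 0.06, limma adjusted p = 0.000547), and CREBBP (-0.03) and EP300 (-0.11) did not pass, nor did the ubiquitin ligase genes ELOB, ELOC, CUL2 and RBX1, with differences from -0.14 to 0.003.

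Of 18 measured glycolytic HIF targets 1 rose, PKM, the pyruvate kinase of the last step of glycolysis (0.30, SE 0.08, limma adjusted p = 0.0457), which is 5.56% of the list against 7.66% of all genes. The classic hypoxia-induced enzymes PGK1 (-0.02) and LDHA (-0.05) and the transporter SLC2A1 (0.16, limma adjusted p = 0.24) did not pass. PGK1 was 13.87 ± 0.05 in sh-PRLR and 13.89 ± 0.02 in sh-Ctrl, and LDHA was 14.03 ± 0.06 in sh-PRLR and 14.08 ± 0.05 in sh-Ctrl. The rise of the glucose transporter SLC2A3 was thus not accompanied by calls among the enzymes downstream of it other than PKM. The difference between SLC2A3 and these genes was not itself tested.

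Other hypoxia-induced genes had 4 rises and 1 fall among 18 measured, 27.8% against 7.66% of all genes. MAFF, a small MAF transcription factor, read 12.61, 12.52 and 12.52 in sh-PRLR, against 11.70, 11.78 and 11.93 in sh-Ctrl, and rose by 0.74 (SE 0.07, limma adjusted p = 0.000162). BHLHE41, the paralog of BHLHE40, read 9.83, 9.86 and 9.72 in sh-PRLR, against 9.33, 9.29 and 9.37 in sh-Ctrl, and rose by 0.47 (SE 0.08, limma adjusted p = 0.0064). Both members of the BHLHE40 and BHLHE41 pair were thus higher on all sh-PRLR arrays. RORA, a nuclear receptor of the clock, rose by 0.39 (SE 0.06, limma adjusted p = 0.00503). TFRC, the transferrin receptor for iron uptake, fell by 0.45, to 13.27 ± 0.06 in sh-PRLR against 13.72 ± 0.02 in sh-Ctrl (limma adjusted p = 0.000294). RIOK3, a kinase gene, was the remaining rise (0.22, SE 0.04, limma adjusted p = 0.0105).

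Of 10 other collagen-modifying enzymes CRTAP, a partner of prolyl 3-hydroxylase, rose (0.26, SE 0.05, limma adjusted p = 0.0136) and 9 did not pass. Thus 10% passed, against 7.66% of all genes, and 3 of the 10 lie in the highest 25% by level. Of 12 other histone demethylases 2 rose (16.7%, against 7.66% of all genes and 19% in the highest 25% by level), JMJD1C, a relative of KDM3A (0.28, SE 0.06, limma adjusted p = 0.0147), and KDM6B, a demethylase of histone H3 lysine 27 (0.36, SE 0.09, limma adjusted p = 0.0293). KDM3B, the closest paralog of KDM3A, was lower on all sh-PRLR arrays by 0.19 without passing (limma adjusted p = 0.0877). Over the 5 lists together 10 of 70 measured genes passed (14.3%), 8 higher and 2 lower, against 7.66% of all genes and 19% in the highest 25% by level, where 32 of the 70 lie. Leaving out any 1 array ended the calls of PKM (limma adjusted p between 0.0797 and 0.147) and KDM6B (0.0532 to 0.107), and CRTAP, JMJD1C and RIOK3 lost theirs without 1 or more single arrays. With all probe sets of a gene averaged, MAFF alone of the neighbouring genes that passed kept its call, TFRC had a difference of 0.22, and PGK1 was lower by 0.40 and passed (limma adjusted p = 0.0436).

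**Figure D5:**
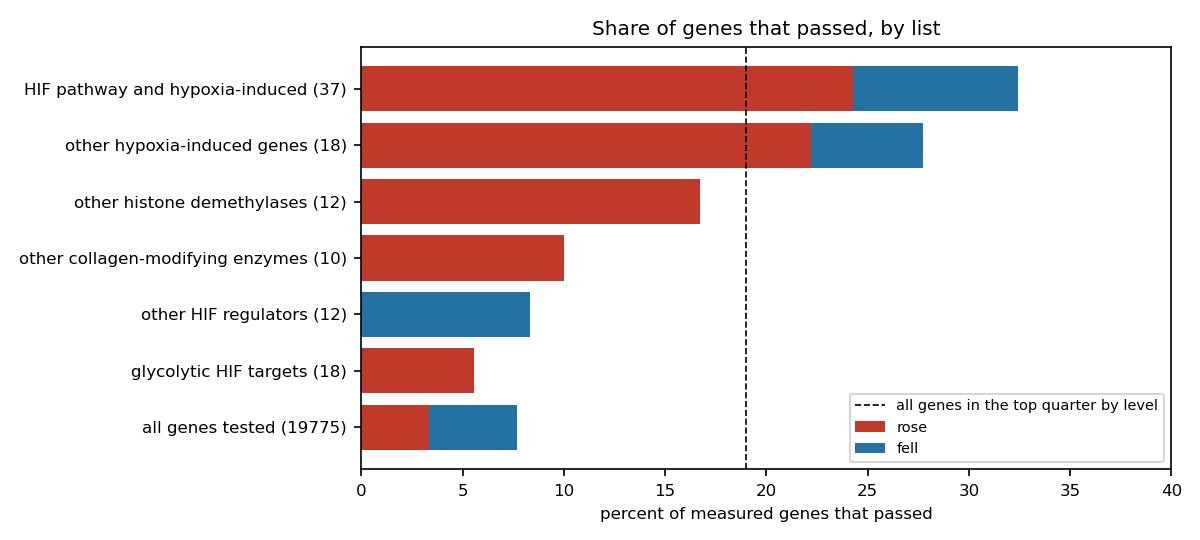
Percent of measured genes that rose (red) or fell (blue) in sh-PRLR in the HIF pathway and hypoxia set, in 5 neighbouring lists and over all genes, with the number measured in brackets and a dashed line at the share of all genes in the highest 25% by level (19%). The HIF pathway and hypoxia set (32.4%) and the other hypoxia-induced genes (27.8%) lie to the right of that line, and the glycolytic targets (5.56%) lie left of the end of the bar for all genes (7.66%). The set and the lists were chosen with earlier results of these data known.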

How the data were processed

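RNA for the 6 arrays was prepared with Trizol. Per the labels' protocols it was then biotin-labelled, and more than 1 amplification kit is listed as possible. Log2 expression is what the deposited files hold, 1 per probe set and array. Per the submitters' processing notes, the tools listed are affy, MAS5 and RMA, with neither order nor version. The trimmed mean of the linear values was 500 on every array, as MAS5 scaling gives, so the values were not normalised again. Of 54675 probe sets 41091 had 1 symbol in the platform annotation and were tested, 1801 had several, and 62 are controls. Symbols were looked up by Entrez ID in RefSeq, which changed 0.

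The comparison of sh-PRLR with sh-Ctrl used R 4.3.3 and limma 3.58.1, with a linear model per gene and eBayes with trend and robust set, two-sided, with Benjamini-Hochberg adjustment over 19775 genes. This variance model was taken because the median SD within groups was 1.15 in the lowest 25% of genes by level and 0.0735 in the highest 25%. The members, lists and tests were chosen with earlier results of these data known, including the counts under both variance models. Named in full are members that passed, the HIF subunits and regulators, and up to 4 passing genes of each neighbouring list. RIOK3, PGK1, LDHA, SLC2A1, KDM3B, CREBBP, EP300 and the ubiquitin ligase genes were named after their values were seen. The alternatives were default variance, median centring, quantile normalisation, a filter on dim genes, other probe set rules, a replicate block and leaving out each array. Plots and promoter searches used matplotlib 3.10.9 and Python 3.11.15. The number of arrays limits the precision.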

Additional observations from a re-analysis of the deposited data

How the results depend on the processing

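The 12 calls among the members kept their direction under every alternative in which the gene was measured, except EPAS1 (0.028 with the mean of all probe sets) and WSB1 (-0.34 without _x_at and _s_at probe sets). With default variance 0 members and 4 genes passed, while default variance after leaving out the 40% of genes of lowest mean, added after seeing the data, gave 9 of the 12 members and 1144 genes. Without _x_at and _s_at probe sets 4 members passed, since 5 of the 12 were then measured, and the median of the members was -0.12. Median centring called 990 genes, of which 57.6% were higher against 43.6%, kept 10 of the 12, lost EPAS1 and PLOD2, and turned the members' median to 0.042. The mean of all probe sets called 609 genes and kept 9 of the 12. The filter on dim genes added HIF1A (limma adjusted p = 0.0477), EGLN1 (0.0453) and FAM162A, and quantile normalisation added FAM162A. With the replicate number as a block 1090 genes and 10 members passed, EPAS1 and PLOD2 being lost. Deviations of same-numbered arrays from their group means correlated at -0.06, 0.06 and -0.10 over genes above the median level. With 3 arrays per group these values cannot decide whether the numbers pair the samples. Leaving out 1 array gave 665 to 1322 genes, 8 to 11 members and a members' median of -0.051 to 0.019, and the gene counts moved by over 1.5 times without sh-PRLR replicate 2 (859) or 3 (948) and without sh-Ctrl replicate 1 (821), 2 (665) or 3 (893). Signs also turned for genes that did not pass. With the mean of all probe sets they turned for ARNT (0.44), EGLN1 (0.048), BNIP3 (-0.74), P4HA2 (-0.62), LOX (-0.12), EP300 (0.32), ELOB (0.012) and ELOC (-0.040), and also for TFRC (0.22), which had passed. Without _x_at and _s_at probe sets they turned for BNIP3 (-1.53), ERO1A (-0.011) and ELOC (-0.083), with quantile normalisation for BNIP3 (-0.084), ERO1A (-0.010) and ELOC (-0.011), and with median centring for VHL (0.042), CREBBP (0.018) and PGK1 (0.023). Leaving out single arrays turned ARNT (range -0.23 to 0.14), VHL (-0.11 to 0.10), EGLN2 (-1.60 to 0.63), ANGPTL4 (-0.31 to 1.10), BNIP3 (-1.13 to 0.85), P4HA2 (-0.054 to 0.14), ERO1A (-0.036 to 0.047), KDM4C (-0.15 to 0.11), CREBBP (-0.081 to 0.047), ELOC (-0.039 to 0.034) and PGK1 (-0.050 to 0.0043). The causes were not tested. For EGLN2, BNIP3 and ANGPTL4 the 95% intervals hold both 0.89 and -0.81, the largest rise and fall of the members that passed. The intervals of LOXL2 and CA12 hold -0.81, and that of LOX holds 0.89. These intervals also hold 0, so for these members the arrays do not tell a change of that size in that direction from no change. The CA12 interval, -0.82 to 0.004, reaches -0.81 only at its lower end.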
